A study of Homo sapiens with 18 samples.

Results

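The stretch of chromosome 3 around P3H2 and CLDN1, at band 3q28, was described here from ChIP-seq peak lists of HEK293T cells. It was taken as an interval of 3.1 Mb of chromosome 3 (hg38), which began 1622 kb before and ended 1478 kb after the P3H2 gene start along the chromosome, together with the bodies of 10 member genes and 10 kb on either side of each, which all lie inside it. The members are TPRG1, TP63, P3H2, CLDN1, CLDN16, TMEM207, IL1RAP, GMNC, OSTN and CCDC50. Every peak sharing at least 1 bp with the window was kept, which gave 321 of the 506359 peaks of the 12 lists. After peaks of an antibody that touched were merged across its 6 libraries, the window held 29 of 55382 H3K27ac regions and 55 of 69985 CTCF regions.

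HEK293T is a transformed human line of embryonic kidney origin. The libraries formed 4 groups of 3 replicates, made with an antibody against H3K27ac or against CTCF. The cells were untreated (CTRL) or had been kept with 1 mM VPA (valproic acid, which blocks histone deacetylases) over 1 day, and both groups were of the same parental line with no other agent or allele named in the labels. The labels number the replicates without saying whether they came from separate cultures, so that p-values measure the spread between these samples, which may be technical.

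Acetylation of lysine 27 of histone H3 is laid down by acetyltransferases and taken off by histone deacetylases, and it marks active promoters and enhancers. CTCF is a zinc finger protein that binds a directional DNA motif and halts the cohesin complex, so that sites whose motifs point towards each other often anchor the ends of chromatin loops. The genes of the window have unrelated roles. P3H2 is a prolyl 3-hydroxylase of collagen, with a part in basement membranes. CLDN1 and CLDN16 are claudins, the strand-forming proteins of tight junctions, and CLDN16 is known for magnesium reabsorption in the kidney. TP63 is the p53-family transcription factor of stratified epithelia, with a long form and a shorter form that begins at a start site inside the gene. IL1RAP is the shared co-receptor of interleukin-1 family receptors, GMNC (geminin coiled-coil domain containing) drives the formation of multiciliated cells, and OSTN encodes the secreted peptide osteocrin. CCDC50 is a ubiquitin-binding adaptor, TPRG1 was named as a gene regulated by p63, and TMEM207 encodes a small membrane protein. LPP, UTS2B and PYDC2 are the other protein-coding genes of the window, which make 13 in all.

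The lists held 26299 to 40992 peaks for H3K27ac and 36469 to 58782 for CTCF. Peak lists carry no read totals, so that depth is unknown, but the genome-wide background coverage recovered from them ran from 3.51 to 3.95 fragments. The replicate 1 libraries stood apart in both antibodies, with 21.2% to 31.9% of their peaks at this lowest background against 3.48% to 13.5% in replicates 2 and 3. Among markers of the line, VIM and SALL4 had an H3K27ac peak at their start in 6 of 6 libraries and NES in 5, whereas PAX2 and LIN28B had none, and no peak was called at the starts of PTPRC and CD3E (blood), ALB (liver) or KRT5 and KRT14 (keratinocytes).

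The window was sparse in acetylated regions. It held 9.35 H3K27ac regions per Mb, where chromosomes 1 to 22 held 19.3, and 17.7 CTCF regions per Mb, where they held 24.3. Of the 29 H3K27ac regions, 10 had a peak in all 6 libraries, 11 in 1 library alone and 8 in a number between. Of the 55 CTCF regions, 13 had a peak in all 6 libraries, which is 23.6% against 39.7% of all CTCF regions. Another 11 CTCF regions (20.0%, against 12.3% of all) had a peak in all 4 libraries of replicates 2 and 3 and in neither replicate 1 library.

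**Figure D1:**
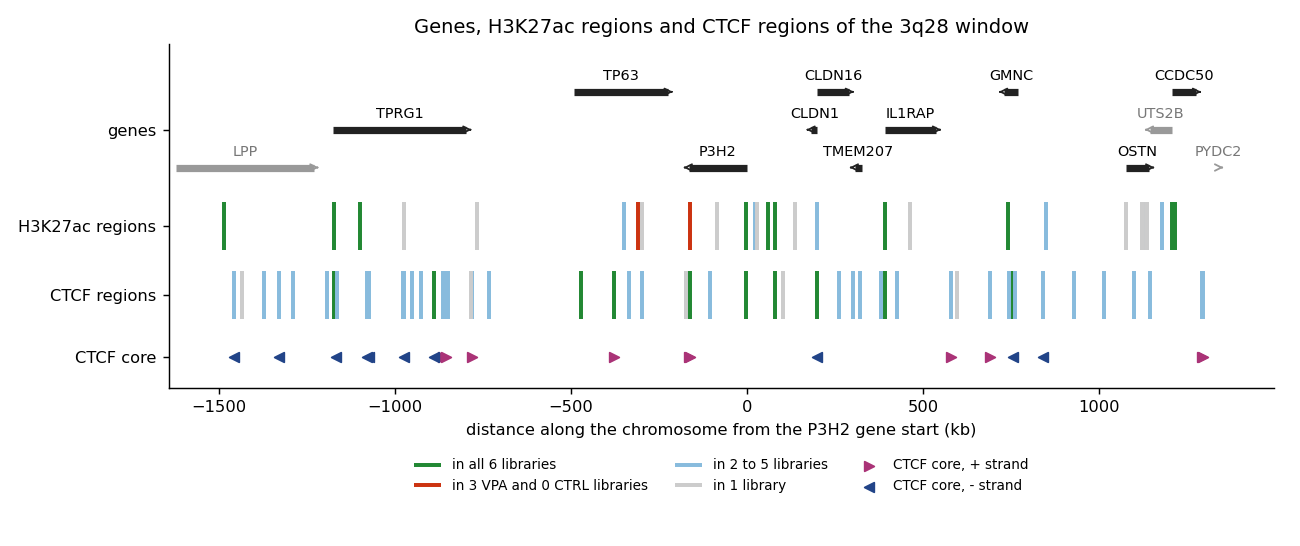
Genes of the 3q28 window (members in black, other protein-coding genes in grey, with an arrow for the direction of transcription), H3K27ac and CTCF regions coloured by the number of libraries with a peak, and the strand of the CTCF core matches, against the distance in kb from the P3H2 gene start. The 2 red H3K27ac bars, in TP63 and P3H2, are those found in all 3 VPA libraries and in no CTRL library.

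More H3K27ac peaks were called in the window in every VPA library than in any CTRL library, but the whole VPA lists were longer too. With 3 replicates per group, such a difference also cannot fall below the threshold. CTRL libraries held 11, 13 and 12 peaks and VPA libraries 14, 24 and 24, so that the groups did not overlap. The means were 12 ± 1 and 20.7 ± 5.77 (SD, n = 3 each), a ratio of 1.72, with p = 0.1 in a two-sided exact permutation test, the smallest p that 3 against 3 libraries can give. Within replicate numbers the difference was 3 peaks in replicate 1, 11 in replicate 2 and 12 in replicate 3. Over the whole H3K27ac lists the groups were apart as well, at 26299 to 29799 per CTRL library against 38441 to 40992 per VPA library. The window count was therefore not separate from list length. With every H3K27ac list cut to the length of the shortest, the window difference was 2.33 peaks in place of 8.67 (exact permutation p = 0.3). The covered length was 9.76, 13.0 and 13.2 kb in CTRL and 12.01, 29.4 and 23.2 kb in VPA, and here the VPA replicate 1 library lay among the CTRL libraries (exact permutation p = 0.3).

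Relative to the length of each list, the VPA libraries did not all lie above the CTRL libraries. Per 10000 H3K27ac peaks, CTRL libraries had 4.18, 4.39 and 4.03 in the window whereas VPA libraries had 3.64, 5.85 and 5.88 (exact permutation p = 0.4). VPA replicate 1 was the lowest of the 6 libraries and VPA replicates 2 and 3 were the highest.

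CTCF showed no such difference. In the window, the CTRL libraries had 20, 49 and 45 CTCF peaks whereas the VPA libraries had 20, 39 and 50, with means of 38.0 ± 15.7 and 36.3 ± 15.2 (SD, n = 3 each, exact permutation p = 1). Both replicate 1 libraries held 20 peaks and the other 4 held 39 to 50. Covered length (exact permutation p = 0.7) and peaks per 10000 (p = 0.9, exact permutation test) overlapped between treatments as well. On the log2 scale the ratio of VPA to CTRL peaks came to 0.78 with the H3K27ac antibody and −0.06 with the CTCF antibody. These differ by 0.85, with p = 0.17 over 400 exact permutations of the libraries within each antibody, and by 0.22 with lists of equal length (exact permutation p = 0.45). After Benjamini-Hochberg adjustment over these 8 comparisons, the smallest p was 0.68.

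**Figure D2:**
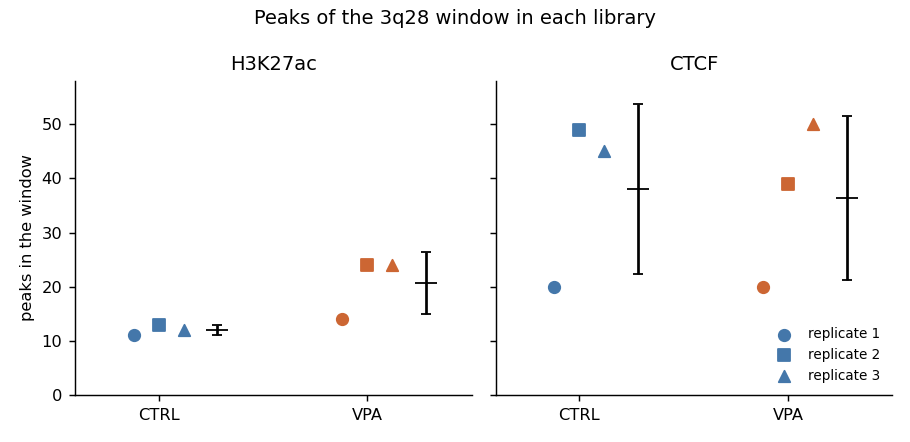
Peaks of the 3q28 window in each library of H3K27ac (left) and CTCF (right), with the replicate number as the symbol and the mean ± SD of 3 libraries as a bar beside them. The H3K27ac groups do not overlap (11 to 13 against 14 to 24), and both CTCF replicate 1 libraries sit at 20.

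H3K27ac regions found in VPA libraries but in no CTRL library lay in introns or between genes, 1 of them 0.577 kb from the OSTN start. A region was called "only in VPA" when all 3 VPA libraries and no CTRL library had it. In the window 2 of 29 H3K27ac regions (6.90%) met this rule, where 2284 of all 55382 regions (4.12%) did. The reverse rule, all 3 CTRL libraries and no VPA library, was met by 0 window regions and by 0.139% of all regions. Counting regions found in as few as 1 library, 15 of the 29 window regions had peaks in VPA libraries alone and 0 in CTRL libraries alone, where 39.4% and 5.2% of all H3K27ac regions did, and the VPA lists were the longer ones. Of those 15, 11 rested on 1 library and 2 on 2 libraries, all of them on VPA replicates 2 and 3. The 11 single-library regions were 327 to 880 bp wide with summits of 15 to 21 fragments, where the lowest summit called in any list lay at 11 or 12. At this depth, a peak missing in another library does not show that acetylation was absent there.

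The first of them was intronic in P3H2, the gene of the collagen prolyl 3-hydroxylase, at chromosome 3 from 189961023 to 189962539. The study describes intronic H3K27ac at P3H2 in these same samples, and its position was not matched here, so that acetylation in P3H2 introns is not independent evidence. No H3K27ac peak was called there in any CTRL library. The fold enrichment, which is the summit over its local background, was 4.28, 4.96 and 4.93 in VPA replicates 1, 2 and 3, from 19, 29 and 22 fragments over the summit. These were peaks of the lower middle of their lists, at the 27.6th, 44.9th and 37.5th percentile of −log10 q-value. Their widths were 329, 1432 and 1231 bp, so that the peak of VPA replicate 1 covered the smallest part of the region. The region is 161 kb inside the gene from its annotated start and 2.92 kb from the start of the closest shorter P3H2 transcript.

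The acetylated P3H2 intron was also a CTCF site. A CTCF region from 189961114 to 189962307 had a peak in all 6 libraries, with 42, 457 and 426 fragments over the summit in CTRL and 59, 68 and 374 in VPA. The libraries thus fell apart into 3 with 42 to 68 fragments and 3 with 374 to 457, and VPA replicate 2 was low where CTRL replicate 2 was high. The log2 change of fold enrichment with VPA was −0.80 ± 1.13 (SE, limma adjusted p = 1.00), smaller than the spread within groups. The CTCF summits of the 6 libraries lay between −18 and +6 bp from a match to the CTCF core. The H3K27ac summits lay at +658, −529 and −50 bp from the core in VPA replicates 1, 2 and 3. In H3K27ac VPA replicate 1 the peak began 482 bp from the core. The CTCF peak of CTCF VPA replicate 1, a separate library, ended before it, at 266 bp. The 201 bases around the CTCF summit are printed because both marks met here, on the plus strand with the core match in capitals.
chr3:189961615-189961815: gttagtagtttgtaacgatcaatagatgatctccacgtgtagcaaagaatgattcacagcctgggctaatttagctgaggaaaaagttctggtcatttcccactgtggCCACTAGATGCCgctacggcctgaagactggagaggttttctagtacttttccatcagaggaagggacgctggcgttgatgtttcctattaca

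**Figure D3:**
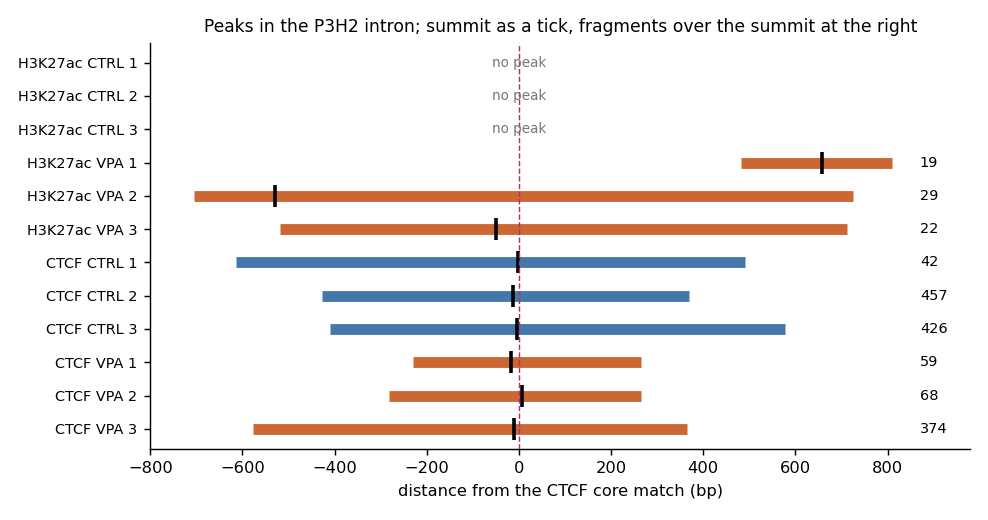
Peaks in the P3H2 intron in each of the 12 libraries, as bars against the distance in bp from the CTCF core match (dashed line), with the summit as a tick and the fragments over the summit at the right. No H3K27ac peak was called in CTRL, and the CTCF summits line up on the core in all 6 libraries whereas the H3K27ac summits are spread from −529 to +658 bp.

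The second was intronic in TP63, the p63 transcription factor, from 189813192 to 189814700. Fold enrichment was 5.34, 4.65 and 6.54 in VPA replicates 1, 2 and 3, from 24, 22 and 33 fragments, and no CTRL library had a peak. The region is 183 kb from the TP63 gene start and 24.3 kb from the closest start of a TP63 transcript, which is internal to the gene. It shared no base with a CTCF region. The 201 bases around its strongest summit held 53.7% G and C, against 45.3% in the P3H2 stretch, and are given for comparison with it on the plus strand.
chr3:189814044-189814244: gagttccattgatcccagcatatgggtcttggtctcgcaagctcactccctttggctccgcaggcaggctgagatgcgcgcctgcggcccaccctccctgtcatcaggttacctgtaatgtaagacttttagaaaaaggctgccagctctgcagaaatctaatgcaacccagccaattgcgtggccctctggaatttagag

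Near both genes, further H3K27ac regions had peaks in VPA replicates 2 and 3 alone. A second TP63 intronic region (189772084 to 189773462) had fold enrichments of 4.04 and 3.65. A region in an intron of P3H2-AS1, the antisense transcript of P3H2, from 190144009 to 190145043, had 2.26 and 3.27 in the same libraries. Counted over the gene body and 10 kb around it, TP63 had 0 H3K27ac peaks in each CTRL library against 1, 2 and 3 in the VPA libraries. P3H2 had 1, 1 and 1 in CTRL and 2, 3 and 2 in VPA. In both genes the groups did not overlap, with p = 0.1 in an exact permutation test for each, the smallest possible value. Of all 19111 protein-coding genes, 10.2% likewise had more H3K27ac peaks in every VPA library than in any CTRL library. CTCF peaks over the same intervals did not follow, with 2, 4 and 4 in CTRL and 2, 4 and 4 in VPA for TP63, and 3, 6 and 5 against 3, 4 and 5 for P3H2.

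H3K27ac regions with a peak in all 3 VPA libraries and in some of the CTRL libraries lay farther along the chromosome. Between GMNC and OSTN, from 190971632 to 190973066, VPA replicates 1, 2 and 3 had fold enrichments of 4.70, 6.06 and 6.65, and CTRL replicate 3 alone had a peak, with 4.66. In an OSTN intron, from 191254816 to 191255557, VPA libraries had 6.20, 4.73 and 6.92 and CTRL replicates 1 and 2 had 3.46 and 4.94. OSTN as a whole had 1, 1 and 0 in CTRL libraries against 1, 4 and 2 in VPA libraries, which overlap (exact permutation p = 0.3). An intron of UTS2B, the urotensin 2B gene, had peaks in replicates 2 and 3 of both treatments, from 191301535 to 191303324, with fold enrichments of 3.59 and 6.44 in CTRL and 4.44 and 3.81 in VPA.

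**Figure D4:**
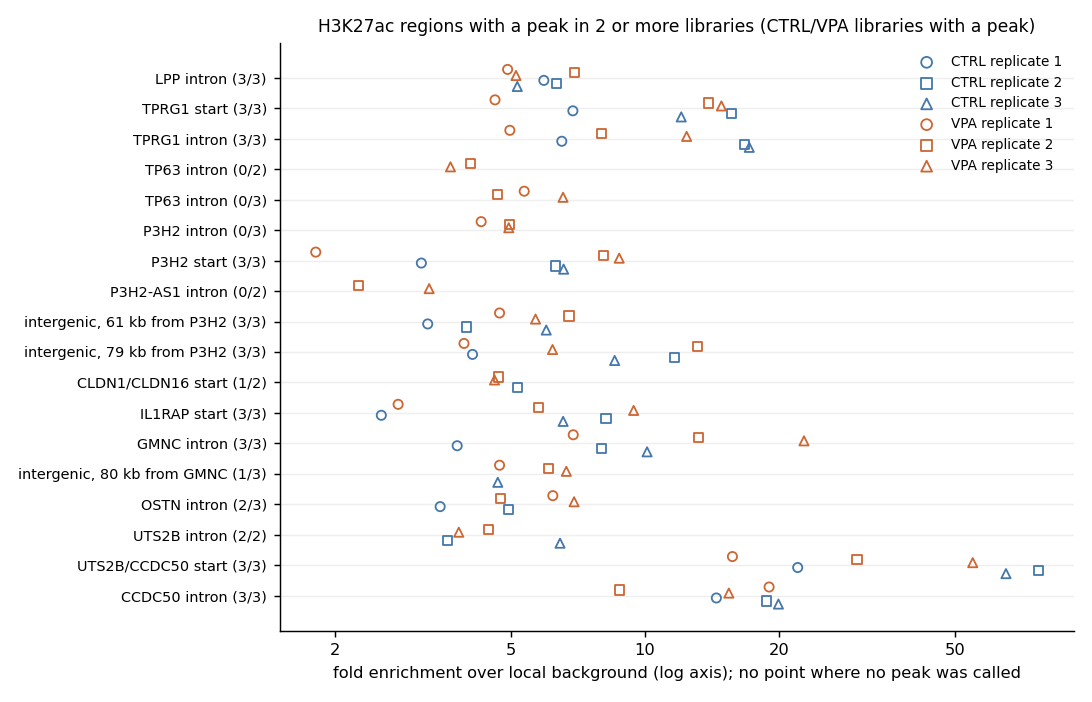
Fold enrichment (log axis) of the 18 H3K27ac regions of the window with a peak in 2 or more libraries, in chromosomal order, with CTRL in blue, VPA in orange and the replicate as the symbol; the label gives the number of CTRL and VPA libraries with a peak. The UTS2B/CCDC50 start stands highest, at 15.7 to 76.9, and replicate 1 circles lie to the left at most gene starts.

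Acetylation at the gene starts of the window split the members into groups. A peak within 1 kb of a transcript start was found in all 6 libraries for 5 of 10 members, TPRG1, P3H2, IL1RAP, GMNC and CCDC50, and for 64.0% of all protein-coding genes. It was found in 1 to 5 libraries for CLDN1, CLDN16 and OSTN, and in none for TP63 and TMEM207, as for 26.8% of all protein-coding genes. TMEM207 had no H3K27ac peak anywhere within its body and 10 kb in any library, and PYDC2, a pyrin-domain gene, had none either.

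The strongest acetylation of the window lay over the shared start of CCDC50 and UTS2B, from 191328145 to 191332324. The summit had 630, 534 and 439 fragments in CTRL and 363, 267 and 254 in VPA, so that every VPA library lay below every CTRL library. How many of all shared regions had this order was not counted. Fold enrichment was 22.1, 76.9 and 65.0 in CTRL and 15.7, 30.0 and 54.7 in VPA, lower in VPA within each replicate number but overlapping between the groups, as both replicate 1 libraries were low. Its log2 change was −0.70 ± 0.73 (SE, limma adjusted p = 1.00) without regard to the replicate number and −0.70 ± 0.22 (limma adjusted p = 0.0390) when pairs of the same number were blocked. With summit fragments over each library's background coverage in place of the fold enrichment, and no block, it was −0.91 ± 0.24 (limma adjusted p = 0.0169). That measure was chosen after seeing the data, and its median log2 change over all 18407 shared H3K27ac regions was −0.28. Of these regions 13.3% were called lower by it and 4.04% higher. CCDC50 also carried an intronic region in all 6 libraries, from 191336773 to 191338775, with fold enrichments of 14.5, 18.8 and 20.0 in CTRL and 19.0, 8.76 and 15.4 in VPA, which overlap. No CTCF peak lay within CCDC50 or 10 kb of it in any library.

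Across the 18407 H3K27ac regions with a peak in all 6 libraries, limma called 0 regions (0%) at an adjusted p under 0.05. At an unadjusted p under 0.05 there were 301, fewer than that threshold would give with no difference anywhere, so that this fit was conservative. H3K27ac libraries of the same replicate number deviated together, but replicates 2 and 3 did so as much across numbers (correlations of 0.61 and 0.55) as within them. The labels do not say that same-numbered libraries are pairs. The fit with the replicate block is given beside it with this limit. It called 871 regions higher in VPA (4.73%) and 2169 lower (11.8%). With fragments over background coverage and no block, 744 were higher (4.04%) and 2456 lower (13.3%). Over the 10 window regions of this kind, the block called 1 higher and 1 lower. Their median log2 change of fold enrichment was −0.08, with 3 of 10 above 0, and over all 18407 regions the median was −0.14.

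The window region called higher under the block lay in GMNC, from 190862425 to 190863416, 0.356 kb from the start of a shorter GMNC transcript. Its fold enrichment was 3.78, 7.96 and 10.1 in CTRL and 6.89, 13.2 and 22.8 in VPA, higher in VPA within each replicate number. The log2 change was 0.92 ± 0.63 without the block (SE, limma adjusted p = 1.00) and 0.92 ± 0.22 with it (limma adjusted p = 0.0119). The fragments over the summit hardly differed, at 135, 94 and 97 in CTRL and 147, 99 and 108 in VPA. The local background that divides them was 35.0, 10.9 and 8.70 fragments in CTRL and 20.5, 6.57 and 3.78 in VPA. On fragments over background coverage, without the block, the log2 change was 0.07 ± 0.22 (limma adjusted p = 0.828), so that the higher fold enrichment moved with the lower local background. Whether that background reflects the input chromatin was not tested, as the input libraries were not analysed here.

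At the other gene starts, CTRL and VPA overlapped. The P3H2 start region lay from 190120077 to 190121473. Its strongest summit was 0.151 kb from a P3H2 transcript start inside the gene and 1.69 kb from the annotated gene start. Within 1 kb of the annotated gene start, VPA replicate 2 alone had a peak. Over the summit, the region had 87, 49 and 49 fragments in CTRL and 53, 51 and 43 in VPA. Its log2 change of fold enrichment was −0.01 ± 0.52 (SE, limma adjusted p = 1.00). This region therefore differed by less than the spread between replicates, whereas the P3H2 intron described above had an H3K27ac peak in VPA libraries alone. The IL1RAP start, from 190513254 to 190515027, had 63, 64 and 57 fragments in CTRL and 74, 63 and 55 in VPA, and TPRG1, from 188946764 to 188949092, had 119, 116 and 101 against 118, 100 and 95. In IL1RAP the fold enrichment of CTRL replicate 1 was 2.55 and that of CTRL replicate 2 was 8.17 although the summits had nearly the same number of fragments, the local background being 24.1 and 6.96.

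The start shared by CLDN1 and CLDN16 was acetylated in few libraries. These claudin genes are transcribed away from each other, with 94 bases between their starts. The region from 190321802 to 190322605 had an H3K27ac peak in CTRL replicate 2, with a fold enrichment of 5.16, and in VPA replicates 2 and 3, with 4.67 and 4.58. No peak was called in CTRL replicate 3 or in either replicate 1 library, so that the presence of the mark did not separate the treatments.

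Upstream of P3H2, a pair of intergenic regions was acetylated in all 6 libraries. The region 61.0 kb from the P3H2 start, from 190182141 to 190183678, had 14, 18 and 26 fragments over the summit in CTRL and 21, 33 and 38 in VPA, which overlap in a single pair of libraries. Its log2 change of fold enrichment was 0.41 ± 0.45 (SE, limma adjusted p = 1.00, and limma adjusted p = 0.263 with the block). The region at 79.4 kb, from 190201346 to 190202168, had 66, 57 and 50 fragments in CTRL and 83, 64 and 52 in VPA and coincided with a CTCF region whose summit lay 35 bp away. Inside TPRG1, 75.7 kb from its start, the region from 189022213 to 189023799 had fold enrichments of 6.49, 16.7 and 17.2 in CTRL and 4.96, 7.99 and 12.4 in VPA. Its log2 change was −0.64 ± 0.64 (SE, limma adjusted p = 1.00, and limma adjusted p = 0.0586 with the block). The remaining region in all 6 libraries was in an LPP intron, from 188635819 to 188636923, with 5.92, 6.32 and 5.16 in CTRL and 4.90, 6.93 and 5.12 in VPA.

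The CTCF sites of the window formed a framework that did not differ detectably between treatments. By the same rules, 0 CTCF regions of the window were found only in VPA and 0 only in CTRL, where 0.186% and 0.326% of all CTCF regions were. At the 27794 regions with a CTCF peak in all 6 libraries, limma called 0 (0%) at an adjusted p under 0.05, and the block gave 0 as well. Without the block 254 had an unadjusted p under 0.05, fewer than that threshold would give with no difference anywhere. The fit was thus conservative, and 0 calls do not show that the sites were unchanged. The 13 window regions had log2 changes of fold enrichment from −0.93 to 0.43. Their standard errors ran from 0.30 to 1.17, and changes within this spread could not be detected.

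The strongest CTCF site lay between CLDN1 and CLDN16, from 190321959 to 190322969. It had 1674, 745 and 657 fragments over the summit in CTRL and 2766, 857 and 640 in VPA, and fold enrichments of 65.6, 93.0 and 67.9 in CTRL and 94.4, 116 and 91.6 in VPA. The log2 change was 0.43 ± 0.30 (SE, limma adjusted p = 1.00). The 94 bases between both claudin starts, printed because they hold the core of this site, contain 74.5% G and C and are given on the plus strand, with the core, which reads on the minus strand, in capitals.
chr3:190322447-190322540: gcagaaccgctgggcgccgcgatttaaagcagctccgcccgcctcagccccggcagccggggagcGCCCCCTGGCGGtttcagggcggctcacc

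By mean log2 fold enrichment, the next CTCF sites in all 6 libraries were an intronic TPRG1 site, an intronic P3H2 site near the end of the gene, the CTCF site of the acetylated P3H2 intron and the IL1RAP start. The TPRG1 site, from 188954386 to 188955203, had 42, 531 and 487 fragments in CTRL and 58, 536 and 466 in VPA, so that both replicate 1 libraries were far below the other 4. The neighbouring P3H2 site, from 189958188 to 189959148, had 387, 338 and 317 in CTRL and 56, 335 and 315 in VPA, and there VPA replicate 1 alone was low. The IL1RAP start, from 190513443 to 190514416, had 595, 264 and 261 in CTRL and 853, 283 and 233 in VPA. Both replicate 1 libraries were the highest in fragments, but their local backgrounds were 29.2 (CTRL) and 30.0 (VPA) fragments. In fold enrichment CTRL replicate 1 was the lowest of the 6, at 19.7. The P3H2 start site, from 190120073 to 190121434, had 297, 136 and 111 in CTRL and 333, 96 and 78 in VPA. There too the replicate 1 libraries were the highest in fragments. In fold enrichment they were the lowest, at 12.2 in CTRL and 12.1 in VPA. At the TPRG1 start, from 188947212 to 188947803, there were 50, 74 and 60 fragments in CTRL and 58, 35 and 32 in VPA.

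**Figure D5:**
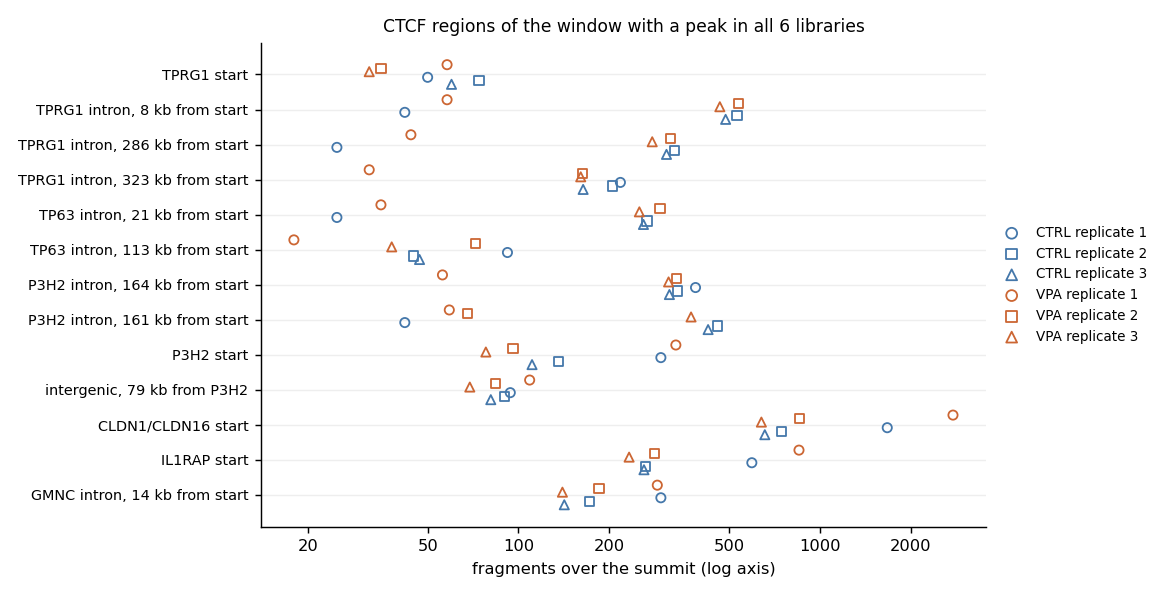
Fragments over the summit (log axis) of the 13 CTCF regions of the window with a peak in all 6 libraries, in chromosomal order, with CTRL in blue, VPA in orange and the replicate as the symbol. The replicate 1 circles are the highest at the starts of P3H2, CLDN1/CLDN16 and IL1RAP. They are also the highest at the GMNC intronic site and the intergenic site 79.4 kb from P3H2, but not at the TPRG1 start. Both are the lowest, at 25 to 59 fragments, at 4 sites in TPRG1, TP63 and P3H2, and at 3 others VPA replicate 1 alone is lowest (18 to 56) and CTRL replicate 1 highest (92 to 387).

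Low CTCF summits were found in the replicate 1 libraries across the genome. Over all 27794 regions with a CTCF peak in all 6 libraries, the summit was under 25% of the median of the 6 libraries at 36.0% of regions in VPA replicate 1 and at 23.5% in CTRL replicate 1. It was so at 1.25% in VPA replicate 2, and at 0 regions in the other 3 libraries. In the window this held for 5 and 4 of the 13 regions in VPA and CTRL replicate 1.

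CTCF core matches gave a strand to 20 of the 55 CTCF regions. A match to the CTCF core consensus of 12 positions, on either strand and with at most 1 mismatch, lay within 100 bp of the summit in 20 of 55 window regions (36.4%, Wilson 95% interval 24.9 to 49.6%), against 36.3% of all CTCF regions and 1.53% of windows 2 kb away. Of the 13 window regions in all 6 libraries, 7 held one (53.8%). The 20 matches were 10 on each strand, and they came in runs, which were not tested against a random order of strands. From the LPP end through TPRG1, the first 7 read on the minus strand, from 188665001 to 189233439. The next 6 read on the plus strand, from the end of TPRG1 through TP63 to the acetylated P3H2 intron, from 189258324 to 189961734. The single match that follows, between CLDN1 and CLDN16, read on the minus strand. The P3H2 intronic cores, which lie inside the gene, and the claudin core thus pointed towards each other, with most of P3H2 and its start between them. The claudin core has 1 mismatch, so that this facing order is seen only when 1 mismatch is allowed. The CTCF regions from 190120073 to 190121434 and from 190201491 to 190202161, in all 6 libraries, also lay between these cores and held no match. Farther on, 2 matches between IL1RAP and GMNC read on the plus strand, 2 in and beyond GMNC on the minus strand and 2 near PYDC2 on the plus strand. A match is a description of letters and was not tested as a binding site, and contacts between sites were not measured here.

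The cores of 5 sites with a peak in all 6 libraries are given 5′ to 3′ on the strand they read, with 9 bases on either side and the core in capitals, to show this change of strand.
TPRG1 intron, minus strand: tgctccattCCAGCAGAGGGCgctcttgga
TP63 intron, plus strand: ccgcacacaCCAGCAGGGGGCctaaggaca
P3H2 intron near its end, plus strand: gccaaatgtCCACTAGAGGGCaacattgct
P3H2 acetylated intron, plus strand: ccactgtggCCACTAGATGCCgctacggcc
CLDN1 to CLDN16, minus strand: gccctgaaaCCGCCAGGGGGCgctccccgg
The cores of TPRG1, TP63 and the first P3H2 site matched without a mismatch, and those of the acetylated P3H2 intron and of the claudin site had 1 mismatch each. No core with at most 1 mismatch was found at the CTCF summits of the IL1RAP and P3H2 starts.

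Overlap of both marks was limited to 7 of the 29 H3K27ac regions (24.1%), where 33.4% of all H3K27ac regions touched a CTCF region. Among those in all 6 libraries it was 4 of 10, against 51.7% of all such regions, and of those only in VPA it was 1 of 2, against 33.0%. The share of window CTCF summits inside H3K27ac regions of the same treatment was 20.0%, 8.16% and 8.89% in CTRL and 30.0%, 15.4% and 12% in VPA. It was higher in VPA within each replicate number, while the groups overlapped (exact permutation p = 0.5, and p = 0.25 in an exact sign-flip test over replicate numbers, the smallest value possible).

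CTCF counts over the body and 10 kb were taken for every member, whose bodies ran from 16.7 kb (CLDN1) to 378 kb (TPRG1). TP63, with no H3K27ac start peak, had 2, 4 and 4 in CTRL and 2, 4 and 4 in VPA. CCDC50, with such a peak in all 6 libraries, had 0 CTCF peaks in each library. CLDN1 had 1 peak in each of the 6 libraries and CLDN16 had 1, 2 and 2 in CTRL and 1, 1 and 2 in VPA. TMEM207 had 1, 2 and 1 in CTRL and 0, 1 and 2 in VPA, and OSTN had 0, 1 and 1 against 0, 2 and 2. TPRG1 held the most of any member, with 7, 13 and 14 in CTRL and 8, 12 and 14 in VPA. IL1RAP had 1, 3 and 3 against 1, 2 and 3, and GMNC had 1, 3 and 2 against 2, 2 and 3. For all 10 members the CTCF counts of the treatments overlapped, as they did for nearly all genes. Of all 19111 protein-coding genes, 0.351% had more CTCF peaks in every VPA library than in any CTRL library, and 0.774% had fewer.

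Genes with roles like those of P3H2 and the claudins were looked at for a region only in VPA within the body and 10 kb. Of 11 collagen prolyl and lysyl hydroxylase genes and their partners (P3H2 not counted) none had one, and 9 of 11 had an H3K27ac region of all 6 libraries within 1 kb of the gene start, among them PLOD1, P3H1, CRTAP and P4HB. Of 24 tight junction genes found in the annotation none had one, and 7 had a start peak in all 6 libraries, among them OCLN, TJP1, CLDN6 and CLDN7. Of all 19111 protein-coding genes, 9.19% had a region only in VPA and 59.0% such a region at the gene start, leaving other transcript starts aside.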

How the data were processed

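Chromatin of HEK293T cells was sonicated, immunoprecipitated for H3K27ac or CTCF and sequenced by the authors, who aligned reads to hg38 with Bowtie2 and called peaks in each library separately with MACS at a q-value of 0.05. The submitters' processing notes name MACS3 3.0.0a7. Whether the input libraries were given to the peak caller is not given in the sources used here. The 12 peak lists were analysed, and the 6 input libraries, the study's other assays were not analysed here. The deposited fold enrichment is the ratio of the summit to its local background, and the deposited score, −log10 p-value and −log10 q-value are the authors' values for each peak.

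Summit fragments and local background were recovered by solving the fold enrichment, as summit plus 1 over background plus 1, and the Poisson p-value. Summits were whole numbers within 0.05 in at least 99.9975% of the peaks of each list. Peaks of an antibody sharing at least 1 bp were merged into regions. Positions were annotated with GENCODE release 44, and a start peak lay within 1 kb of a transcript start. A library's percentile of a peak is its place by −log10 q-value in its own list.

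Window counts were compared with two-sided exact permutation tests, and fold enrichment at regions that all 6 libraries shared with limma 3.58.1 on log2 values without a pseudocount and with Benjamini-Hochberg adjustment over all such regions, tested on simulated data. Same-numbered H3K27ac libraries deviated together (correlations of 0.87, 0.59 and 0.59 over regions), although replicates 2 and 3 were as alike across numbers (0.55 and 0.61). Same-numbered CTCF libraries were less alike (0.34, −0.05 and 0.48). The main limma fit and the permutation tests took no pairs, and the replicate block was an alternative to them. Python 3.11.15, numpy 2.4.6, pandas 2.3.3, scipy 1.17.1 and matplotlib 3.10.9 were used. Any pair of lists shared at most 8 identical intervals. Intervals cover counting error only.

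Members, gene lists and regions were chosen with earlier results of these data known. All members were named, together with H3K27ac regions in at least 2 libraries, the 5 CTCF regions of highest mean log2 fold enrichment among those in all 6 libraries, and CTCF regions at member starts or overlapping regions only in VPA. The CTCF cores printed for TP63 and TPRG1 were chosen after their values were seen. Some marker genes are not reported here.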

Additional observations from a re-analysis of the deposited data

How the results depend on the processing

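The count of 2 H3K27ac regions only in VPA was 2 as well with peaks of −log10 q 3 or more (7.14%, against 3.86% of all regions). It was also 2 with peaks of 5 or more, chosen after seeing the data (9.52%, against 3.62%). It was 1 of 16 with lists of equal length (6.25%, against 1.47% of all regions), where the TP63 region was found. It was also 1 when 50% of a region had to be covered by a library's peaks (3.45%, against 4.64% of all regions). There neither the TP63 nor the P3H2 region counted and the region between GMNC and OSTN did. It ranged from 2 to 4 with each library left out, reaching 4 of 29 (13.8%) without VPA replicate 1, where 11.2% of all regions met the rule, and was 4 in replicates 2 and 3 alone, chosen after seeing the data, where 13.0% did. CTCF regions only in VPA ranged from 0 to 1 and only in CTRL from 0 to 1 with each library left out. Of all CTCF regions, 0.314% to 0.907% were then only in VPA, and from 247 of 68917 to 1850 of 67979 only in CTRL. In replicates 2 and 3 alone, CTCF regions only in VPA numbered 1 (1.82%, against 1.32% of all).

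The change in CTCF peak number turned from −1.67 to 0.667 with lists of equal length and ranged from −10.7 to 6.50 with each library left out, covered length from −7.65 to 4.10 kb and peaks per 10000 from −0.873 to 1.06. With equal lengths the H3K27ac peak number difference came to 2.33 in place of 8.67 (exact permutation p = 0.3) and that between antibodies to 0.22 in place of 0.85 (exact permutation p = 0.45). No exact test passed 0.05 under any alternative. For tests within 1 antibody this was fixed in advance, as 3 against 3 libraries or fewer give no p below 0.1. With a replicate block, an exact sign-flip test gave p = 0.25 for H3K27ac peak number and p = 1 for CTCF peak number. Its smallest possible p is 0.25, so that it could not change a call on window counts. For H3K27ac fold enrichment the replicate block called 3040 regions, replicates 2 and 3 alone 1836 (GMNC at 0.95, limma adjusted p = 0.0402) and fragments over background coverage 3200, the last pair chosen after seeing the data, where the other alternatives called 0. CTCF core matches fell to 12.7% of window regions without a mismatch, and the claudin core was then not among them. The causes of these shifts were not tested. Read depth is unknown, and 11 of 29 H3K27ac regions rested on 1 library.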

Other observations

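Some values stood outside the comparisons. In the window, CTCF core matches without a mismatch were found at 7 of 55 CTCF regions, and 4 of them belonged to the 13 regions that all 6 libraries shared. LPP, the LIM domain gene that reaches into the window, had 2, 3 and 4 H3K27ac peaks within its body and 10 kb in CTRL and 2, 4 and 5 in VPA, and 2, 9 and 7 against 1, 6 and 6 CTCF peaks, both overlapping between treatments. UTS2B had 2, 3 and 3 against 2, 4 and 5 H3K27ac peaks, and its only CTCF peaks were 1 each in VPA replicates 2 and 3.

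The summits of H3K27ac did not show the low values seen in CTCF replicate 1. Of the 18407 H3K27ac regions shared by all 6 libraries, 2 had a summit under 25% of the median of the 6 libraries in CTRL replicate 1 and none in the other 5 libraries. The source of the low CTCF summits was not tested.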
